A study of Mytilus galloprovincialis with 16 samples.

Results

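The 6 genes described here are the chitinases AJ623376, AJ624093, AJ624637, AJ625051, AJ625569 and AJ625778, 6 of the 1920 cDNA probes of a mussel microarray. They were selected on their stage values: the study's annotation describes them as chitinase and each is on its list of genes with altered mRNA abundance across the stages compared here. A gene was tied to its probe by its 3 fitted stage values, which had to match within 0.005. The 6 chosen probes matched within 0.0021 at most, and the closest other probe of any member was 0.057 away. Because members were chosen by the same ratios, stage differences are given below as a description, without a test. The closure of the hybridization loop and the dye effect are not among the stage changes that chose the members, and these are tested. Both can still add to the residual spread on which the study's list also rests, so they are not wholly independent of the choice.

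The study followed female Mediterranean mussels, Mytilus galloprovincialis, collected from a wild population through the seasons, and asked how transcript abundance in the mantle varies with gonad maturation. Mussel mantle houses the gonad, so the tissue holds gametes, storage cells and the shell-forming epithelium together. Stage 1 was the early stage (November), stage 2 gonad development (January), stage 3 the ripe gonad (February) and stage 4 spawning (March). Mantle RNA of single animals at 2 stages was hybridized on each of 16 dual-color arrays, 4 arrays each for stage 2 vs stage 1, stage 3 vs stage 2, stage 4 vs stage 3 and stage 4 vs stage 1, with the dyes swapped on 2 of every 4. The labels give no treatment, and stage and collection month cannot be told apart. The labels do not say which animals recur on several arrays. In such whole-tissue RNA, fewer cells of a type and less RNA per cell cannot be told apart either.

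Chitinases cut chitin, the N-acetylglucosamine polymer of arthropod cuticles, fungal walls and parts of the molluscan shell framework. Animal chitinases typically join a catalytic domain to a small chitin-binding domain rich in cysteines, which holds the enzyme on its substrate. In bivalves they are known from the digestive system, from hemocytes and from the mantle, with roles proposed in feeding, immunity and shell formation. The array carries cDNA probes from the 3′ ends of transcripts. AJ623376 is the only member annotated with the glycoside hydrolase catalytic domain of chitinases. AJ624093, AJ625051, AJ625569 and AJ625778 carry only the annotation of the chitin-binding domain. AJ624637 adds a cellulose-binding region to it. Related cDNAs can share sequence, so cross-hybridization among the 6 probes, and whether some come from the same transcript, was not tested.

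All values below are log2 ratios of the later over the earlier stage, after background correction and loess normalization, with the 2 spots of each probe averaged. A ratio of 1 is a 2-fold difference, and the ratio of each array is given in the order of its replicate number. Between 44.5% and 92.4% of probe spots exceeded the empty spots across the 32 channels (2 dyes on each array), where exceeding means that the foreground minus the local background was above 95% of the empty spots. The chitinase probes did so in 8 of 8 channels at every stage, except AJ625051, in 7 of 8 channels at stages 2 and 3. No chitinase spot was saturated. The array labelled stage 2 vs stage 1 replicate 1 stood apart for these genes, although its spread over all probes (SD of 0.53) was within the range of its 3 companions (0.53 to 0.65). Stage 2 vs stage 1 values are therefore given with and without it. One label field of stage 3 vs stage 2 replicate 4 names stage 4 where its title and month give stage 3, which was used.

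Between the early stage and gonad development, chitinase mRNA was more abundant at stage 2 on every array. All 24 ratios (6 genes on 4 arrays) were positive, from 0.37 to 2.52. The median of the 6 gene means was 1.02, a 2.03-fold higher level, while the median over all 1920 probes was -0.03. A gene was higher on all 4 arrays for 6 of 6 chitinases, against 18% of all probes. The size depended on the normalization, with a median of 1.83 where each array was only median-centred and no loess step was made.

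The size of this difference was uneven across arrays. AJ625051, annotated as chitinase 1, had ratios of 2.51, 0.73, 0.73 and 0.49 (1.11 ± 0.94, SD, n = 4). AJ624093 gave 2.52, 0.49, 0.72 and 0.45 (1.05 ± 0.99). In both genes replicate 1 was far above the 3 others, which lay close together. AJ624637, with the cellulose-binding annotation, gave 2.32, 0.73, 0.49 and 0.64 (1.04 ± 0.86). AJ625778 gave 2.30, 0.64, 0.44 and 0.63 (1.00 ± 0.87). The same array was again the high one. AJ625569 gave 2.10, 0.70, 0.39 and 0.48 (0.92 ± 0.80). AJ623376, the member with the catalytic domain, gave 1.87, 0.37, 0.63 and 0.42 (0.82 ± 0.71). Without replicate 1 the 6 means were between 0.47 and 0.65 with a median of 0.56, and SDs were 0.11 to 0.16, so the increase stayed positive in every gene at a lower size. With loess run within each print-tip block, 22 of the 24 ratios were positive, and the means of AJ624637 and AJ623376 were 0.037 and 0.17.

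From development to the ripe stage, chitinase mRNA was lower on every array, and these were among the largest decreases of the array. All 24 ratios were negative, from -4.31 to -0.70. The median of the 6 means was -2.17, a 4.50-fold lower level at stage 3, against 0.03 over all probes. The 6 of 6 chitinases lower on all 4 arrays compare with 22.2% of all probes.

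With one loess curve per array, AJ624637 had the lowest mean of all 1920 probes in this comparison, with ratios of -4.31, -2.27, -2.70 and -2.69 (-2.99 ± 0.90, SD, n = 4, 7.97-fold lower). The first array was the lowest and the other 3 were close together. With print-tip loess its ratios were -0.33, -0.85, -0.31 and -0.75 (-0.56 ± 0.28, rank 149), so its place and size rest on the single curve, while the other 5 means were then between -3.16 and -1.59. AJ623376 had rank 4 from the lowest, with -3.24, -2.19, -2.20 and -2.27 (-2.48 ± 0.51, 5.57-fold lower). Its last 3 arrays were nearly equal. AJ624093 gave -2.88, -2.40, -1.46 and -2.55 (-2.32 ± 0.61, 5.01-fold lower). AJ625569 gave -2.47, -1.86, -1.46 and -2.28 (-2.02 ± 0.45, 4.05-fold lower). Replicate 3 was the least negative in both of these genes.

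The 2 members with the means nearest to 0 in stage 3 vs stage 2 were those whose duplicate spots disagreed there. AJ625778 gave -2.88, -1.91, -0.70 and -2.43 (-1.98 ± 0.94, 3.95-fold lower). Its high value, in replicate 3, averages one spot at -1.65 and another at 0.24. AJ625051 gave -2.21, -2.20, -1.46 and -0.97 (-1.71 ± 0.60, 3.27-fold lower). Its high value, in replicate 4, averages spots at -0.09 and -1.85. In the other 4 genes the 2 spots were never more than 0.42 apart on any of the 16 arrays.

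Between the ripe and the spawning stage the chitinases differed little. Of the 24 ratios 21 were negative, from -1.04 to 0.18. The median of the 6 means was -0.18, a 1.14-fold lower level at stage 4, but it was 0.064 with each array only median-centred and no loess step, so the direction rests on the normalization. A gene was lower on all 4 arrays for 3 of 6 chitinases, against 16.1% of all probes.

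Those 3 were AJ623376, AJ624637 and AJ625569. AJ623376 gave -0.06, -0.52, -0.17 and -0.94 (-0.42 ± 0.40, SD, n = 4). AJ624637 gave -0.15, -0.24, -0.24 and -0.10 (-0.18 ± 0.07), and AJ625569 gave -0.08, -0.15, -0.06 and -0.45 (-0.19 ± 0.18). Their means were therefore small, and in AJ623376 and AJ625569 close to 1 SD. AJ625051 ranged from -1.04 to 0.18 (-0.38 ± 0.52), the widest of the 6. AJ624093 lay between -0.19 and 0.01 (-0.12 ± 0.09). AJ625778 lay between -0.18 and 0.00 (-0.09 ± 0.07), so neither gene was low on all 4 arrays.

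The spawning stage set directly against the early stage closes the loop, and the decrease was here the most even. All 24 ratios were negative, from -3.49 to -1.69, and SDs ran only from 0.19 to 0.43. The median of the 6 means was -2.33, a 5.04-fold lower level at stage 4, against -0.09 over all probes. It was -1.38 without background correction and -1.44 with median centring. The 6 of 6 chitinases lower on all 4 arrays compare with 22.5% of all probes.

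AJ623376 was the lowest of the 6, with -2.73, -2.85, -3.12 and -3.49 (-3.05 ± 0.34, SD, n = 4, 8.27-fold lower). AJ625778 followed with -2.49, -2.39, -2.80 and -2.79 (-2.62 ± 0.21, 6.15-fold lower). In both genes the 4 arrays lay closer together than their distance from 0. AJ625569 gave -1.80, -2.34, -2.67 and -2.75 (-2.39 ± 0.43, 5.24-fold lower). AJ624637 gave -2.34, -2.07, -2.18 and -2.51 (-2.28 ± 0.19, 4.84-fold lower). The last pair, AJ624093 and AJ625051, had nearly the same mean. AJ624093 gave -2.53, -2.36, -2.49 and -1.69 (-2.27 ± 0.39, 4.82-fold lower). AJ625051 gave -2.69, -2.10, -2.26 and -1.97 (-2.26 ± 0.31, 4.78-fold lower).

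**Figure D1:**
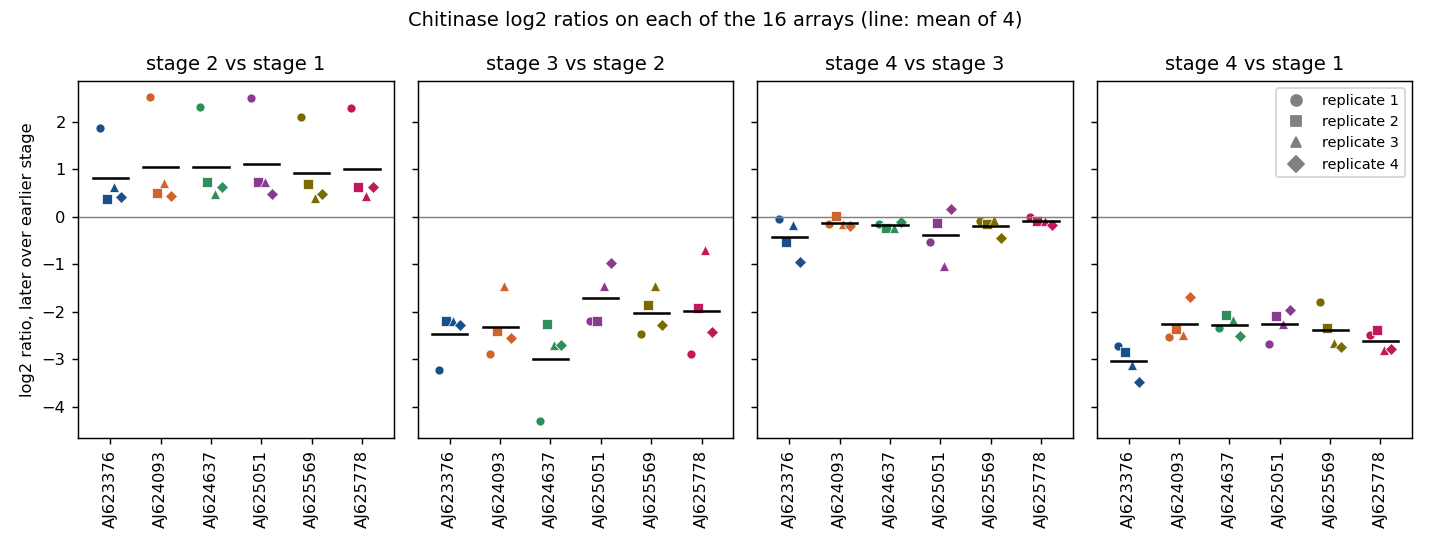
Log2 ratios, later over earlier stage (y axis), of the 6 chitinases (x axis, one colour each) in the 4 comparisons; symbols are the 4 replicate arrays and lines their mean. Replicate 1 (circles) is the high array in every gene of stage 2 vs stage 1, at 1.87 to 2.52, and all ratios of stage 3 vs stage 2 and stage 4 vs stage 1 are negative.

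A single fit over all 16 arrays (limma) combined the direct comparison with the other way round the loop. A probe was called at a Benjamini-Hochberg adjusted p under 0.05 over the 1920 probes together with log odds (B) above 0. Since these fitted changes decided which genes the study listed, the counts are descriptions. At stage 3 vs stage 2, 6 of 6 chitinases were called lower (5.78% of all probes), with fitted changes of -3.03 (AJ624637, SE 0.24) to -2.03 (AJ625051, SE 0.28) and a median of -2.46. At stage 4 vs stage 1, 6 of 6 were called lower (3.23% of all probes), from -2.80 (AJ623376, SE 0.22) to -1.94 (AJ625051, SE 0.28), with a median of -2.17. Without the 4 direct arrays of stage 4 vs stage 1, 1 of 6 was called there.

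Stage 3 was never hybridized directly against stage 1, so that contrast exists only through the fit. There 5 of 6 were called lower (4.22% of all probes), with a median change of -1.73. AJ623376 had the lowest value, -2.14 (SE 0.26, 4.41-fold lower). AJ625051, at -1.23 (SE 0.32, 2.35-fold lower), was the member not called, because its log odds were -1.50. Leaving out the arrays of stage 4 vs stage 3, or those of stage 4 vs stage 1, left 0 of 6 called in this contrast.

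Neither of the smaller steps gave a call. At stage 2 vs stage 1, 0 of 6 were called higher (2.81% of all probes), although 2 of 6 passed the adjusted p alone. The fitted changes ran from 0.58 (AJ623376, SE 0.22) to 1.01 (AJ624637, SE 0.24) with a median of 0.72. Under median centring in place of loess, 6 of 6 were called higher there, and 7.24% of all probes were. At stage 4 vs stage 3, 0 of 6 were called lower (2.66% of all probes), with fitted changes from -0.70 (AJ625051, SE 0.28) to -0.22 (AJ624637, SE 0.24) and a median of -0.47. Of the 6, 0 passed the adjusted p alone at this step.

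Levels in the single channels were ranked by stage, but the place of stage 3 depended on its partner stage. The median over the 6 genes at stage 3 was 9.46 on arrays against stage 2. On arrays against stage 4 it was 7.82, beside 7.67 for stage 4 itself. Each stage was measured in 8 channels, and a level is the log2 channel signal after equalizing the brightness of the arrays, comparable between stages for one probe but not between probes. In all 6 genes the medians ordered as stage 2, stage 1, stage 3 and stage 4 from high to low. AJ623376 had medians of 12.21 (lowest 11.61, highest 12.61) at stage 2 and 11.30 (10.69 to 11.74) at stage 1. Its stage 3 median was 9.36 (8.82 to 10.28) and its stage 4 median 8.32 (8.05 to 8.83). Thus stages 1 and 2 overlapped, as did stages 3 and 4, but the lower pair lay wholly below the upper pair, as it did in 1 of the 6 genes (0.781% of all probes). AJ624637 had medians of 12.92 (11.90 to 13.93), 10.95 (10.36 to 12.19), 9.30 (7.71 to 10.41) and 8.13 (7.61 to 8.74) in that order. AJ625569 had 10.86 (10.33 to 11.82), 10.20 (8.97 to 10.54), 8.38 (7.14 to 8.99) and 7.55 (7.08 to 7.87). In both, stage 1 overlapped stage 2 on its upper side and stage 3 on its lower side.

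The other 3 members had wider ranges. AJ625778 had medians of 11.37 (10.79 to 12.35), 10.51 (10.05 to 11.58), 8.80 (7.36 to 10.51) and 7.81 (7.27 to 8.78). AJ624093 had 12.22 (11.59 to 13.12), 10.79 (8.68 to 11.79), 8.50 (7.26 to 10.31) and 7.83 (6.99 to 8.47). AJ625051 had 11.56 (7.25 to 12.99), 10.36 (8.84 to 11.93), 8.53 (6.28 to 10.19) and 7.72 (6.87 to 8.47). The lowest stage 2 and stage 3 channels of AJ625051 lie on one array, replicate 4 of stage 3 vs stage 2, where its spots disagreed.

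Counted over the 6 genes, channels of neighbouring stages in this order overlapped in all but 1 case. Channels of stage 4 lay wholly below those of stage 1 in 6 of 6 chitinases (1.88% of all probes). Channels of stage 3 lay wholly below those of stage 2 in 5 of 6 (4.95% of all probes), AJ625051 being the exception. Stage 3 lay wholly below stage 1 in 1 of 6 (3.28%), which was AJ623376. Stage 1 lay wholly below stage 2 in 0 of 6 (0.938%), and stage 4 below stage 3 in 0 of 6 (1.15%).

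**Figure D2:**
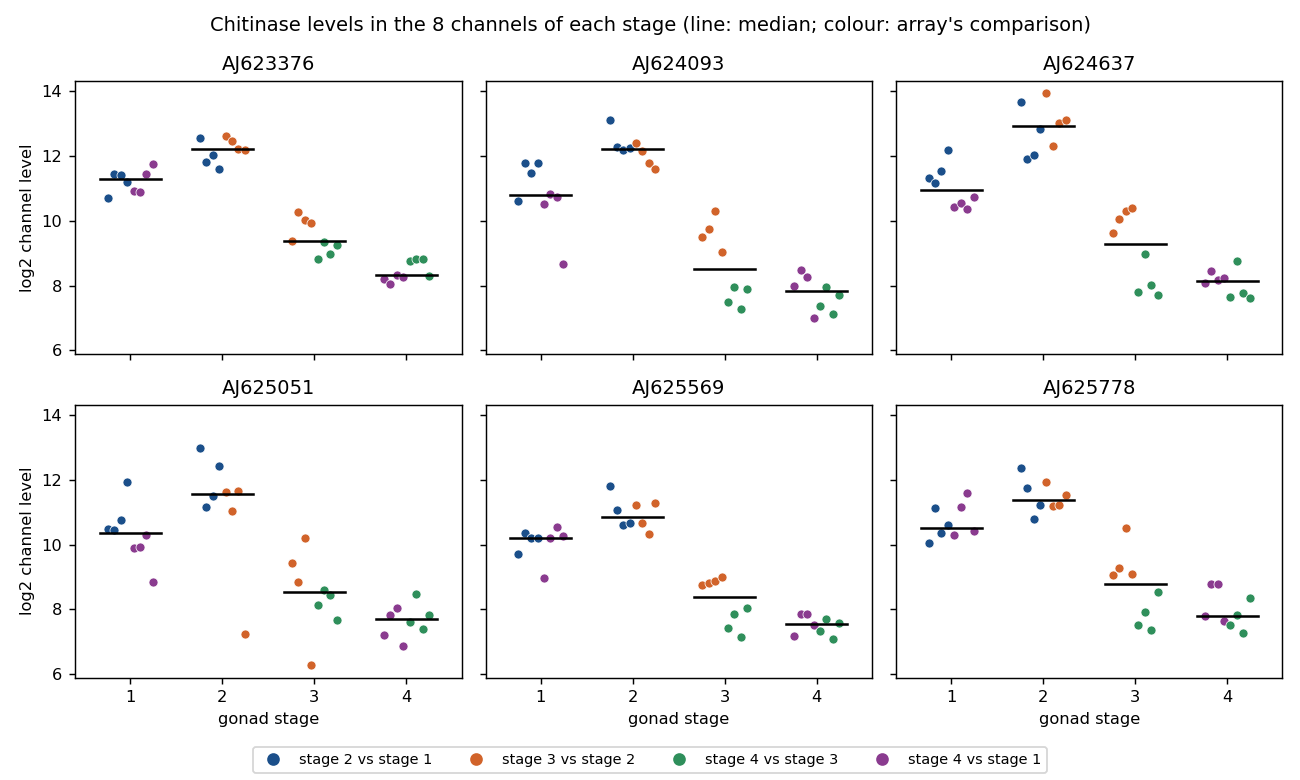
Log2 channel level (y axis) of each chitinase in the 8 channels of each gonad stage (x axis); colours give the comparison the channel's array belongs to and lines the median. Stage 3 channels hybridized against stage 2 (orange) lie above those hybridized against stage 4 (green) in every gene but AJ625051.

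The same stage gave different levels beside different partners. For stage 3, the median over the 6 genes ranged from 9.06 to 10.25 in the 4 channels hybridized against stage 2. It ranged from 7.67 to 8.29 in the 4 channels hybridized against stage 4. These ranges did not overlap, and the stage 3 channels of the latter were near the stage 4 channels, at 7.34 to 8.22 on the same arrays.

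By gene, the stage 3 channels against stage 2 lay wholly above those against stage 4 in 5 of 6 chitinases. They did so in 10.3% of all probes, and lay wholly below in 3.8%. AJ624093 lay between 9.04 and 10.31 against stage 2 and between 7.26 and 7.96 against stage 4. AJ625569 lay between 8.74 and 8.99 against stage 2 and between 7.14 and 8.03 against stage 4. The gap was narrowest in AJ623376, with 9.37 to 10.28 against 8.82 to 9.35. For stage 1 the channels beside stage 2 lay wholly above those beside stage 4 in 2 of 6 (8.33% of all probes, with 3.59% wholly below). For stages 2 and 4 the sets were apart in 0 of 6 in either direction. Stage 2 channels beside stage 1 lay wholly above those beside stage 3 in 4.84% of all probes and wholly below in 5.21%. Stage 4 channels beside stage 3 lay wholly above those beside stage 1 in 19.2% and wholly below in 10.7%. Without equalizing the arrays, the stage 3 sets were again apart in 5 of 6, but then 56.9% of all probes were, so the array brightness moves with this split. Its part in the result was not tested.

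Whether the loop closes was tested for each gene, by setting the sum of the 3 steps against the direct stage 4 vs stage 1 ratio. A mismatch above 0 means that the steps add up to less of a decrease than the direct comparison shows. In 6 of 6 chitinases it was positive, from 0.14 to 1.55, with a median of 1.04, against a median absolute mismatch of 0.35 over all probes. The median signed mismatch over the 368 genes on the study's list was 0.41, also above 0. The 6 genes share the same arrays, so their signs are not separate results. With plain background subtraction AJ624637 was at -0.34. The share of all probes with a positive mismatch is not given. With limma and Benjamini-Hochberg adjustment over the 1920 probes, 0 of 6 passed an adjusted p of 0.05, while 13.5% of all probes and 33.7% of the 368 genes on the study's list did. At an unadjusted p under 0.05 there were 3 of 6, against 26.5% of all probes.

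AJ625778 had the largest mismatch, 1.55 (SE 0.59, adjusted p = 0.103), with steps adding to -1.07 where the direct ratio was -2.62. AJ625051 had 1.28 (SE 0.58, adjusted p = 0.171) and AJ625569 had 1.11 (SE 0.47, adjusted p = 0.150). These 3 were the members below an unadjusted p of 0.05. AJ623376 had 0.97 (SE 0.47, adjusted p = 0.197). AJ624093 had 0.87 (SE 0.56, adjusted p = 0.363). AJ624637 alone closed nearly exactly, at 0.14 (SE 0.57, adjusted p = 0.923), its steps adding to -2.13 and its direct ratio being -2.28. Without replicate 1 of stage 2 vs stage 1 the median mismatch was 0.67, the mismatch of AJ624637 was -0.28, and again 0 of 6 passed. Of the 6 genes, 1 passed when replicate 1 of stage 3 vs stage 2 was left out, and 2 passed with the authors' deposited ratios (15.2% of all probes). With print-tip loess 13.1% of all probes passed. AJ624637 was then the 1 member that passed, at a mismatch of 1.82 (SE 0.21, adjusted p = 6.08e-05). AJ624093 was then at -0.22, so which genes closed the loop depended on the normalization.

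The mismatch sets how large the stage 3 vs stage 1 decrease appears. Going through stage 2 the median over the 6 genes was -1.19, and going through stage 4 it was -2.18. Without replicate 1 of stage 2 vs stage 1 the route through stage 2 gave -1.63. AJ625778 had the widest gap, with -0.98 through stage 2 and -2.53 through stage 4. AJ625051 gave -0.59 and -1.87, and AJ624637 gave -1.95 and -2.09, or -0.53 and -2.35 with print-tip loess. Both routes were negative in all 6 genes.

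**Figure D3:**
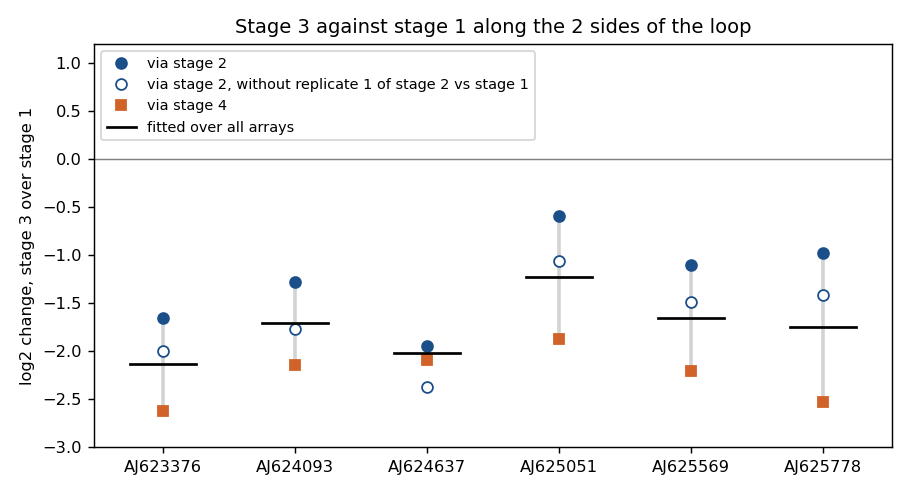
Log2 change of stage 3 over stage 1 (y axis) of each chitinase (x axis) through stage 2 (filled circles), through stage 2 without replicate 1 of stage 2 vs stage 1 (open circles) and through stage 4 (squares), with the change fitted over all arrays (line). With one loess curve per array the 2 routes meet in AJ624637 (-1.95 and -2.09) and are furthest apart in AJ625778 (-0.98 and -2.53).

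A dye effect was not detectable in the chitinases. With a dye term in the fit, 0 of 6 passed an adjusted p of 0.05 by limma (1 of 1920 probes, 0.0521%), and 0 of 6 had an unadjusted p under 0.05, against 252 of all probes. The largest dye term was -0.21 (AJ625051, SE 0.16, adjusted p = 0.577), and the smallest was -0.0029 (AJ624637, SE 0.15, adjusted p = 0.996).

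Within an array some of the 6 genes lay apart from the rest, and most of these differences moved with the normalization. Each gene's ratio was set against the median of the other 5 on the same array, which removes what the members share. AJ623376 was below the others on 4 of 4 arrays of stage 4 vs stage 1, by -0.98 to -0.24 (-0.59 ± 0.31, SD, n = 4). It was below them on 4 of 4 under each of the 8 other background, normalization and dim-spot settings as well, at means of -0.75 to -0.37. AJ624637 was below the others on 4 of 4 arrays of stage 3 vs stage 2, by -1.43 to -0.08 (-0.79 ± 0.65). With print-tip loess it was instead above them on 4 of 4, by 2.23 ± 0.64. At stage 4 vs stage 1 it was above the others on 4 of 4 (0.30 ± 0.13), but on 2 of 4 with print-tip loess (-0.12 ± 0.30). AJ625569 was above the others on 4 of 4 arrays of stage 3 vs stage 2 (0.23 ± 0.19), and on 3 of 4 with the authors' ratios (-0.036 ± 0.28). AJ625051 was above them on 4 of 4 of stage 2 vs stage 1 (0.14 ± 0.11), and on 3 of 4 with print-tip loess. AJ625778 was above them on 4 of 4 of stage 4 vs stage 3 (0.07 ± 0.05). These are the cases with one sign on all 4 arrays, taken from every gene in every comparison. With 4 arrays one sign can arise by chance, and no test was made.

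Spread among arrays was large for these genes, and larger than the spread between duplicate spots in each of them. The SD of a ratio within comparisons was 0.51 to 0.65 over the 6 genes, against a median of 0.29 over all probes. Between the 2 spots of a probe it was 0.12 or lower in AJ623376, AJ624093, AJ624637 and AJ625569, against a median of 0.26. In AJ625051 and AJ625778 the spot SDs were 0.45 and 0.35. Without replicate 1 of stage 2 vs stage 1 the SD within comparisons was 0.35 to 0.51.

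Array by array the members moved together. After subtracting the comparison means, Pearson's r over the 16 arrays had a median of 0.73 over the 15 pairs of members (0.43 to 0.89), against 0.00 over all pairs of probes. The closest pair was AJ625569 with AJ625778 (r = 0.89), and the loosest was AJ623376 with AJ625051 (r = 0.43). These points share animals, hybridizations and possibly probe sequence. AJ625569 and AJ625778 are also the only members printed in the same print-tip block (16), and the part of print position in their r was not tested. With print-tip loess the median over the pairs was 0.56. Without replicate 1 of stage 2 vs stage 1 the median fell to 0.35 (-0.28 to 0.79, 15 arrays), so much of the likeness came from one array. AJ625569 with AJ625778 still gave 0.79.

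That array differed from its companions at few probes. Its member median was 2.31, against 0.67, 0.56 and 0.48 on its 3 companions. Only 27 of the 1920 probes (1.41%) were over 1 above the highest of the other 3 arrays, and all 6 chitinases were among them. Of 15 genes that the study had clustered with the chitinases in digestive gland, 9 were also among the 27. None of 3 digestive enzyme, 3 oocyte and egg, and 3 muscle probes was. Between 79.8% and 84.2% of its probe spots exceeded the empty spots, against 88.2% to 91.3% on its companions.

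**Figure D4:**
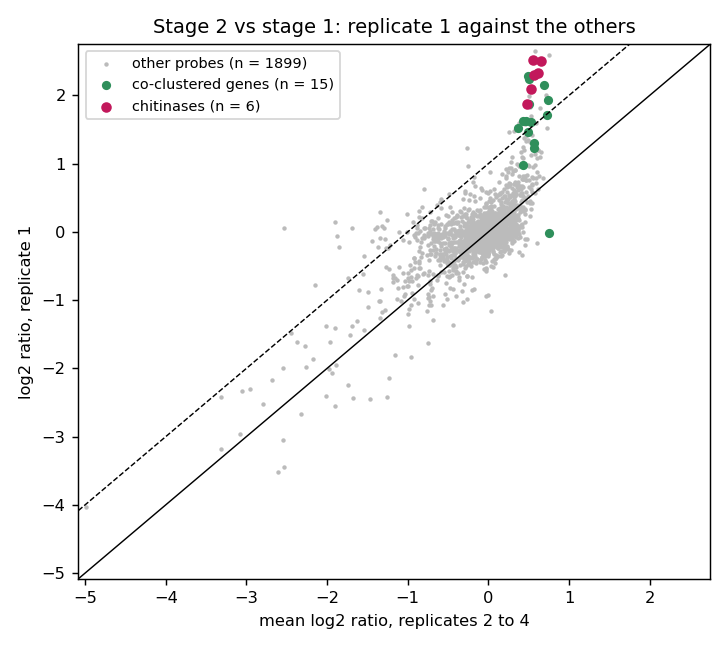
Log2 ratio in replicate 1 (y axis) against the mean of replicates 2 to 4 (x axis) of stage 2 vs stage 1 for all 1920 probes; the solid line marks equal values and the dashed line a difference of 1. The 6 chitinases (pink) lie above the dashed line at 1.87 to 2.52, with most of the 15 co-clustered genes (green) near them.

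Outside the family, 3 genes on the study's list carry chitin terms in their annotation, and they had the signs of the chitinases in the 3 comparisons where the family differed most. A clone has a gene name here only where the study listed it as altered in these samples, so counts of calls in the lists that follow are raised by that choice, and genes with chitin terms that the study did not list are not covered. Direct ratios were higher on all 4 arrays at stage 2 vs stage 1 in 3 of 3 (18% of all probes). They were lower on all 4 arrays in 3 of 3 at stage 3 vs stage 2 (22.2%) and at stage 4 vs stage 1 (22.5%).

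AJ625276, which has no description and is also 1 of the 15 genes of the digestive gland cluster described below, had means of a size near those of the chitinases. It gave 1.61, 0.56, 0.46 and 0.55 at stage 2 vs stage 1 (0.80 ± 0.54, SD, n = 4), and -3.60, -1.59, -1.80 and -1.97 at stage 3 vs stage 2 (-2.24 ± 0.92). At stage 4 vs stage 1 it gave -3.03, -3.48, -3.77 and -3.78 (-3.51 ± 0.35), lower than any of the 6 chitinase means. With print-tip loess its means at stage 2 vs stage 1 and stage 3 vs stage 2 were 0.17 and -0.63. The other 2 had means nearer to 0 at stage 3 vs stage 2 and stage 4 vs stage 1. AJ625361, described as elongation factor-1 alpha, a translation factor, averaged 0.57 ± 0.28, -0.89 ± 0.25, -0.09 ± 0.10 and -0.62 ± 0.37 in stage 2 vs stage 1, stage 3 vs stage 2, stage 4 vs stage 3 and stage 4 vs stage 1. AJ626213, described as glucose dehydrogenase, averaged 0.76 ± 0.37, -1.08 ± 0.18, 0.09 ± 0.22 and -0.24 ± 0.13, so its mean at stage 4 vs stage 3 had the opposite sign to the chitinases. That mean was smaller than its SD. With median centring it was 0.012, beside a chitinase median of 0.064. In the fit 3 of 3 were called lower at stage 3 vs stage 2 (5.78% of all probes) and 2 of 3 lower at stage 4 vs stage 1 (3.23%). Of the 3, 1 was called lower at stage 3 vs stage 1 (4.22%) and 1 higher at stage 2 vs stage 1 (2.81%). At stage 4 vs stage 3, 0 of 3 were called (2.66% of all probes lower and 2.24% higher).

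Markers of the cell types that mantle samples could hold were set beside the chitinases. The 3 digestive enzymes, alpha-amylase (AJ624381), an endo-beta-glucanase (AJ623374) and a trypsin-like enzyme (AJ624548), shared the profile only in part. Their mean log2 ratios had medians of -0.95, 0.05, 0.01 and -0.33 in the 4 comparisons named above (the last was 0.65 with median centring), and over 16 arrays their r with the mean of the chitinases was -0.68, 0.01 and -0.31. Alpha-amylase exceeded the empty spots in 25 of 32 channels and the other 2 in 32 of 32. Their summed level (log2) was 9.70 to 10.86 at stage 1, 8.98 to 9.95 at stage 2, 9.50 to 10.22 at stage 3 and 9.33 to 10.40 at stage 4. Its median was lowest, at 9.14, at the stage where the chitinases were highest. Such a sum gives most weight to the brightest probe, so it need not follow each gene. At stage 4 vs stage 1, 2 of the 3 enzymes were lower on all 4 arrays (22.5% of all probes), as the chitinases were. The trypsin-like enzyme averaged -1.79 ± 1.23 there. The part of digestive tissue in the chitinase profile was not tested.

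Oocyte and egg genes ran the other way at the ripe stage. The vitelline envelope genes AJ625872 and AJ625914, which encode proteins of the egg coat, and the germ granule gene pan-1 (AJ623653) had median log2 ratios of -1.41, 1.67, 0.24 and -1.63. Their 3 probes were higher on all 4 arrays at stage 3 vs stage 2 (24.9% of all probes), where 6 of 6 chitinases were lower on all 4. Over 16 arrays r with the chitinase mean was -0.24, -0.27 and -0.35. Their summed level (log2), again weighted to the brightest probe, was 8.70 to 11.22 at stage 2 and 11.12 to 12.45 at stage 3. At that step oocyte transcripts were thus higher where the chitinases were lower. The fit called 0 of 3 higher there (6.46% of all probes), with a median change of 1.14. At stage 4 vs stage 1, 2 of 3 were lower on all 4 arrays (22.5% of all probes), as the chitinases were. In each of the 3 genes the steps added up to a higher value than that direct ratio. At spawning the summed level spanned 8.64 to 12.66, while the chitinases stayed low in all 8 channels. The part of oocyte content in the chitinase decrease was not tested.

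The 3 muscle genes did not share one direction, and had medians of 0.09, -0.42, -0.14 and -0.31 in the 4 comparisons. At stage 3 vs stage 2 the sarcoplasmic calcium-binding protein AJ623579 averaged -0.80 ± 0.34 and actin (AJ625071) -0.42 ± 0.46, both lower on all 4 arrays. The unc-89 gene AJ624863, named for a muscle protein of nematodes, averaged 1.24 ± 0.40 and was higher on all 4. The fit called 1 of the 3 higher (6.46% of all probes) and 1 lower (5.78%) there. Over 16 arrays r with the chitinase mean was 0.79 for AJ623579, 0.28 for actin and -0.53 for unc-89. The one mantle marker, mantle gene 8 (AJ624733), had an r of 0.95. It averaged 0.72 ± 0.29 at stage 2 vs stage 1, -1.40 ± 0.15 at stage 3 vs stage 2, 0.20 ± 0.24 at stage 4 vs stage 3 and -1.93 ± 0.42 at stage 4 vs stage 1. It exceeded the empty spots in 32 of 32 channels, so the labelled tissue's marker was present at every stage. The r of 0.95 holds the stage differences, and after subtracting the comparison means it was 0.54. At stage 4 vs stage 3 the mean of this marker had the opposite sign to the chitinases, but was smaller than its SD. With median centring both were positive there, at 0.18 for the marker and 0.064 for the chitinase median. In the remaining comparisons this 1 marker and the chitinases moved in the same direction. The part of somatic mantle content in the decrease was not tested.

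In the study's digestive gland arrays, not analysed here, the 6 chitinases had fallen in one cluster with 15 other genes. In the mantle the medians of those 15 had the same signs as the chitinases in all 4 comparisons. The median of their mean log2 ratios was 0.76 at stage 2 vs stage 1 and -2.16 at stage 3 vs stage 2, beside 1.02 and -2.17 for the chitinases. It was -0.17 at stage 4 vs stage 3 and -3.12 at stage 4 vs stage 1, beside -0.18 and -2.33. Ratios were lower on all 4 arrays for 15 of 15 at stage 3 vs stage 2 (22.2% of all probes) and at stage 4 vs stage 1 (22.5%). They were higher on all 4 at stage 2 vs stage 1 for 14 of 15 (18%). The fit called 15 of 15 lower at stage 3 vs stage 2 (5.78% of all probes) and stage 4 vs stage 1 (3.23%). It called 14 of 15 lower at stage 3 vs stage 1 (4.22%) and 3 of 15 higher at stage 2 vs stage 1 (2.81%). At stage 4 vs stage 3 it called 0 of 15 (2.66% of all probes lower and 2.24% higher). Only 2 of the 15 have a description, AJ624162 (a SAM domain-containing protein) and AJ625253 (described as a variable surface lipoprotein). AJ624990 had the lowest mean of them at stage 4 vs stage 1, -3.95 ± 0.35 (SD, n = 4), and AJ623902 the highest, -0.98 ± 0.46.

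**Figure D5:**
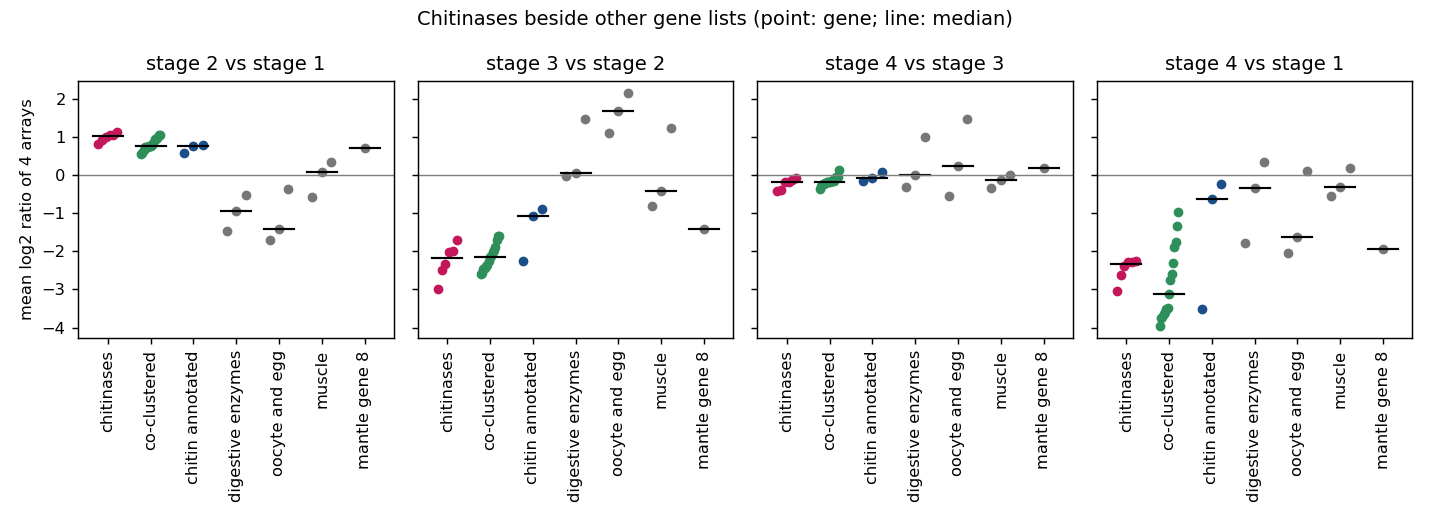
Mean log2 ratio of 4 arrays (y axis) of each gene (points) in 7 lists (x axis), with the list median (line), in the 4 comparisons. At stage 3 vs stage 2 the chitinases (median -2.17) and the co-clustered genes (-2.16) lie lowest and the oocyte and egg genes (1.67) highest.

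The clones whose ratios followed the chitinases most closely were ranked by Pearson's r over the 16 arrays with the mean of the 6. The 10 highest had r of 0.96 to 0.99, and 38 clones, the 6 members included, exceeded 0.9, with a median of 0.01 over all probes. These values hold the stage differences that chose the members and are a description. AJ625253 was closest (r = 0.99), with mean ratios of 0.94, -2.59, -0.17 and -2.59. AJ625594, described as general transcription factor iii c 1, a factor of RNA polymerase III transcription, was next (r = 0.99), with 0.87, -2.01, -0.31 and -2.41. Both lay within the range of the chitinase means in each comparison. The clones Myt01-011F09 and Myt01-015C07, unnamed here, followed, and then AJ624162, AJ623632, AJ623739, AJ625350, AJ625270 and AJ623636. Of the 10, 6 belong to the digestive gland cluster. At the other end, only AJ623326, without a description, had r below -0.9.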

How the data were processed

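The authors scanned the 16 arrays and quantified spots with GenePix; the deposited intensity values give, for Cy5 and Cy3, each spot's mean signal and the median of its surroundings, without normalization. A second deposited table holds log2 ratios that the authors made in limma by offset background subtraction and loess, used here to tie genes to probes and as an alternative. Its scale and direction were checked against the intensities (r of 0.964 or more on each array), and it is not centred by gene.

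Here the intensities were background-corrected by normexp with an offset of 50, ratios were normalized by loess within each array with the 608 empty and 112 alignment spots at weight 0, and the 2 spots of each of 1920 probes were averaged (limma 3.58.1, R 4.3.3). Ratios were turned to later over earlier stage by the labelled dyes. Stage changes came from least squares over 16 arrays with moderated statistics (prior share 0.01). Loop closure was a contrast of the 4 comparison means, and the dye effect an added term. Channel levels were taken after Aquantile normalization between arrays.

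The members and gene lists were chosen with earlier results of these data known. Named genes were the 6 chitinases, 3 genes with chitin terms, 10 marker genes, and the 10 clones most like the chitinase mean. AJ624087, a further gene described as a chitinase, was not analysed here. No 2 arrays of a comparison agreed within the noise between spots (lowest variance ratio 1.38). The labels give single animals as replicates, so the p-values rest on differences between these arrays. The number of arrays limits the precision. Sequences of the probes were not used here. The stage fit, the loop closure and the dye effect were also run on simulated data whose spread was taken from these arrays. Alternatives covered background, normalization, filters, thresholds, weights and leaving out each array.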

Additional observations from a re-analysis of the deposited data

Results flagged for a closer look

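In 7 of 40 sets of 4 arrays tested, one array lay apart from the other 3 by Dixon's criterion, which chance passes in about 1 of 20 sets. For 6 of the 7 it was replicate 1 of stage 2 vs stage 1. The log2 ratio there was 2.52 in AJ624093, against 0.45 to 0.72 on the other 3 arrays. It was 2.32 in AJ624637 (others 0.49 to 0.73), 2.51 in AJ625051 (0.49 to 0.73) and 2.30 in AJ625778 (0.44 to 0.64). The median of the 6 chitinases was 2.31 (0.48 to 0.67), and AJ625276, a gene with chitin terms outside the family, was at 1.61 (0.46 to 0.56). These values share one array and are 1 event rather than 6. The remaining set was AJ623376 at stage 3 vs stage 2, where replicate 1 was at -3.24 and the others at -2.27 to -2.19.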

How the results depend on the processing

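The decreases at stage 3 vs stage 2 and stage 4 vs stage 1 kept their direction under every alternative run, and 5 or 6 of 6 chitinases were called lower at stage 3 vs stage 2 in each. Over the background and normalization settings, 4.38% to 7.34% of all probes were called lower there. Background and normalization moved the sizes. With each array only median-centred, the chitinase median was 0.064 at stage 4 vs stage 3 and -1.44 at stage 4 vs stage 1. AJ623376, AJ624093, AJ624637 and AJ625778 were then at 0.14, 0.022, 0.13 and 0.11 at stage 4 vs stage 3, and the co-clustered genes at 1.56, 0.26 and -2.07 at stage 2 vs stage 1, stage 4 vs stage 3 and stage 4 vs stage 1. That setting called 6 higher at stage 2 vs stage 1 (7.24% of all probes) and 2 for dye. It called 0 lower at stage 3 vs stage 1 (1.04%) and 3 lower at stage 4 vs stage 1 (2.66%). Without background correction the chitinase medians were -0.0930 at stage 4 vs stage 3 and -1.38 at stage 4 vs stage 1 (co-clustered genes -1.81). Then 2 were called higher at stage 2 vs stage 1 (4.06% of all probes) and 3 lower at stage 3 vs stage 1 (3.33%). Plain subtraction gave -0.28, -2.81 (co-clustered genes -3.72) and 1 called higher (0.99% of all probes). Scale normalization gave -0.24, -2.00 (-2.67), 1 called lower at stage 3 vs stage 1 (3.59% of all probes) and a median r between members of 0.88. Print-tip loess moved AJ624637 most and gave a chitinase median of -0.14 at stage 4 vs stage 3 and an r of 0.56. It gave 3 called higher at stage 2 vs stage 1 (3.23% of all probes) and 1 loop mismatch (13.1%). Loop mismatches numbered 2 with all spots at weight 1 in loess (15.1% of all probes) and 2 with the authors' ratios (15.2%). At stage 2 vs stage 1, 2 were called higher by adjusted p alone, 2 with a prior share of 0.1, and 2 with duplicate spots kept separate. The cause of these shifts was not tested. Leaving out single arrays, 0 to 1 were called higher at stage 2 vs stage 1, 0 to 1 had a loop mismatch, and the median r ran from 0.35 to 0.78. Added after seeing the data, leaving out the arrays of stage 4 vs stage 1 gave 0 calls at stage 3 vs stage 1 and 1 at stage 4 vs stage 1, and leaving out those of stage 4 vs stage 3 gave 0 at stage 3 vs stage 1. Same-numbered arrays did not pair (16 correlations of deviations from -0.21 to 0.17, 4 of them over 0.1). With the replicate block 1 loop mismatch passed, and the block changed no other call count by over 1.5 times. Shares of all probes are not given for the threshold, separate-spot, leave-out and replicate-block counts, or for the dye count. Over all values and settings, 1016 of 1089 stayed within the limits set. Signal near the empty spots limits AJ625051 most.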
